A study of Mus musculus with 3 samples.

Results

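Gene-poor hemoglobin barcodes are droplets of the single-cell libraries whose counts are mostly hemoglobin and that hold few kinds of transcript. A barcode belonged here when Hba and Hbb genes took over 50% of its unique molecular identifiers (UMIs) and fewer than 200 genes were found in it, so the members were selected on measured values, the hemoglobin share and the number of genes. The rule found 817 of 5386 barcodes in the naive library, 3186 of 8536 at D11 and 2961 of 9337 at D14, which is 6964 of 23259 in all. Peripheral blood (PB) came from Balb/C mice labelled WT, which the methods describe as young adult females, and 1 library was made per condition: naive mice, and leukemic mice 11 and 14 days after engraftment of BBC2 cells. BBC2, a GFP-expressing line with features of pro-B cells, carries the fusion kinase BCR-FGFR1 and serves as a model of stem cell leukemia/lymphoma syndrome (SCLL). In all 3 samples red cells had been lysed and dead cells depleted before the 10x Genomics 3′ v3 libraries were made. The barcodes described here are therefore those found after lysis. Whether each holds a whole red cell was not tested. How many mice went into each library, and whether BBC2 is 1 clone, is not given in the sources used here, and with 1 library per condition a difference between conditions cannot be told apart from a difference between libraries.

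A red cell matures by filling with hemoglobin while it shuts down and removes almost everything else. The nucleus is expelled, the young cell (reticulocyte) enters the blood with a remnant of cytoplasmic RNA, and over the following days mitochondria are cleared by autophagy, proteins are tagged with ubiquitin and degraded, and the RNA itself is lost. Hemoglobin needs globin chains, heme and iron, so the genes that supply heme and iron, those of the membrane skeleton and those of the clearance machinery are the ones known to be kept late in erythroid life.

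Members held medians of 2722, 5610.5 and 3185 UMIs and 91, 124 and 151 genes in naive, D11 and D14 (all triplets below are in that order), with a least member of 506, 978 and 505 UMIs. Hemoglobin took a median of 91.9955, 94.3 and 90.7% of a member's UMIs. What remained, called residual here, had a median of 233, 360 and 298 UMIs per barcode and summed to 227886, 1186428 and 919836 UMIs per library, and levels are given as CPM, a gene's part of that sum scaled to 1000000, with the exact Poisson 95% interval in brackets where shown. These intervals, and those of ratios and shares, cover counting error only. Members made up 15.2, 37.3 and 31.7% of barcodes and 9.80, 33.9 and 14.3% of the UMIs of their libraries, shares that lysis can set. The members of the naive library were the poorest in residual UMIs, those of D11 the richest, and the D14 members had the highest median number of genes.

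**Figure D1:**
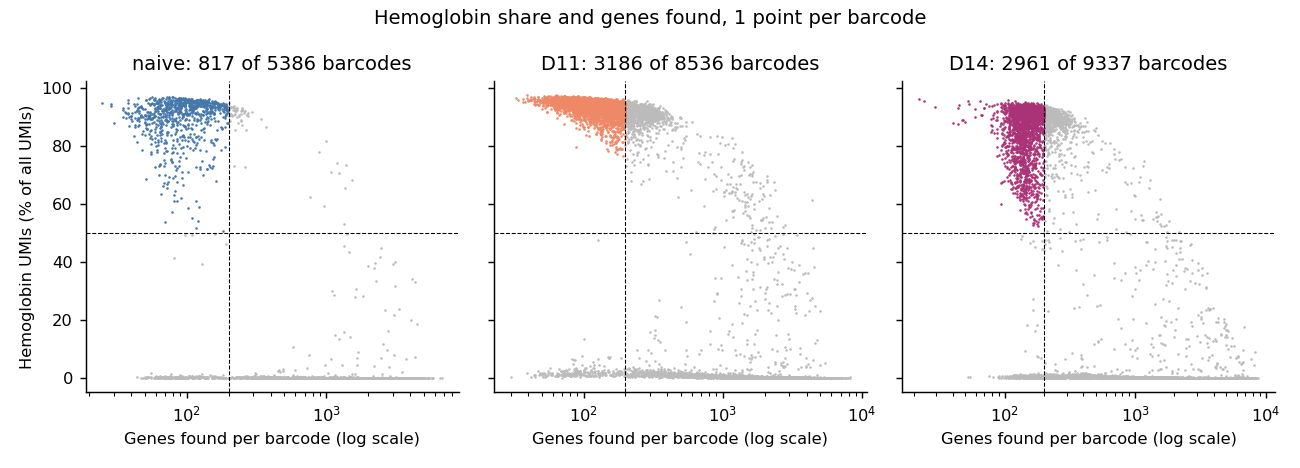
Hemoglobin share of the UMIs (vertical axis, %) against the number of genes found (horizontal axis, log scale), 1 point per barcode and 1 panel per library, with the members in color and the limits of the rule as dashed lines. The 817, 3186 and 2961 members form the upper left of each panel and run on without a gap into barcodes with 200 genes or more, while few barcodes lie near 50% hemoglobin.

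The limit of 50% hemoglobin lay in a sparse region. There were 4 naive, 0 D11 and 11 D14 members with 50 to 55% hemoglobin, against 4, 1 and 7 gene-poor barcodes with 45 to 50%. The limit of 200 genes cut through a continuum. Members within 10 genes below it numbered 15, 155 and 247 and had medians of 8915, 8706 and 5156 UMIs, and the hemoglobin barcodes with 200 genes or up to 9 more numbered 11, 145 and 202 with medians of 8905, 9118 and 5548. Heme synthesis genes took 30888, 30854 and 27872 CPM just inside that limit and 29858, 30618 and 28032 CPM just outside it. Libraries shared 12 (naive and D11), 14 (naive and D14) and 18 (D11 and D14) barcode sequences, of which 1, 1 and 0 were members in both.

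Red cell identity was described with genes that the rule did not use. Alas2, Ube2l6 and Slc25a37 are markers of this part's label, which was chosen with earlier results of these data known. Their values are therefore a description and no independent check. Alas2 (ENSMUSG00000025270, GRCm38 chrX:150547375-150570638, plus strand), the erythroid enzyme of the initial step of heme synthesis, was found in 88.4, 92.7 and 80.01% of members after each barcode had been thinned to 100 residual UMIs, against 0.164, 0.556 and 0.485% of the other barcodes, those with at least 200 genes and no hemoglobin majority. In the same barcodes without thinning the shares were 96.4, 99.01 and 92.3% of members and 1.81, 7.23 and 5.90% of other barcodes, which had medians of 5001, 3731 and 5359 residual UMIs. Ube2l6, a ubiquitin-conjugating enzyme, was found in 56.9, 57.9 and 42.97% of thinned members and 0.0939, 0.185 and 0.253% of thinned other barcodes. Slc25a37, the mitochondrial iron importer mitoferrin, was found in 50.3, 58.3 and 37.4% and 0.282, 0.689 and 0.716%. Thinning left out 86, 57 and 15 members with fewer than 100 residual UMIs. Genes of early erythroid and progenitor stages were at or near 0: Epor, the erythropoietin receptor, had 0 UMIs in every library, Kit had 0, 0 and 1 UMIs, Gata1 had 2, 9 and 2 and Klf1 had 1, 8 and 2. None of these genes went against the name of red cells, while the series' labels give the cells as immune cells. They do not show that members are the later ones. Thinned hemoglobin barcodes with at least 200 genes had Alas2 in 71.9, 80.1 and 79.4%. Ube2l6 was found in 35.9, 44.2 and 38.5% of them and Slc25a37 in 45.3, 44.8 and 45.1%. The genes near 0 were not set beside that class here. The same thinning found the neutrophil gene S100a9 in 12.9, 13.3 and 41.4% of members and 31.1, 45.9 and 31.9% of other barcodes (24.9, 35.6 and 77.5% and 52.1, 69.2 and 87.9% without thinning), so at D14 it was found in members about as often as Ube2l6.

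The upstream windows of the genes that fill these barcodes are shown because erythroid promoters are textbook sites of GATA and CACCC motifs. Each window is the 250 bases before the RefSeq start, 5′ to 3′ on the gene's strand in GRCm38.p6, with matches to the GATA motif (AGATAA or TGATAA, either strand) and to CACCC (either strand) in capitals, and the RefSeq start can differ from the gene start given above.
Alas2, chrX:150547167-150547416, plus strand: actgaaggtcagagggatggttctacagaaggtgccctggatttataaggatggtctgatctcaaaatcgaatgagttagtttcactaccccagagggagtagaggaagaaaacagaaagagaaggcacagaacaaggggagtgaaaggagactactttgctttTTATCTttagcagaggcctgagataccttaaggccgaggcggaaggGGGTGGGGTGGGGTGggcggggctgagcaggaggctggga
Hbb-bs, chr7:103827929-103828178, minus strand: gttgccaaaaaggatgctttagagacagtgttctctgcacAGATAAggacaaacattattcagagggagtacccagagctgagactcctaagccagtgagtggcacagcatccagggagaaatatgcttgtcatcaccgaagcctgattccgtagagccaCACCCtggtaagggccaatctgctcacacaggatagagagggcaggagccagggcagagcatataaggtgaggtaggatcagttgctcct
Hbb-bt, chr7:103813924-103814173, minus strand: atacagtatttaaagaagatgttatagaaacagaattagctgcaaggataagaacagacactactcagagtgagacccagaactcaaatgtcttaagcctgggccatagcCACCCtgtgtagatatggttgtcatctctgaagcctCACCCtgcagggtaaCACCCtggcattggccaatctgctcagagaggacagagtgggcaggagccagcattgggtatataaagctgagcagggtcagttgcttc
The Alas2 window held a GATA match 86 bases before the start and CACCC matches 40, 35 and 30 bases before it. The Hbb-bs window held GATA at 210 and CACCC at 90 bases, and the Hbb-bt window held CACCC at 140, 104 and 89 bases and neither AGATAA nor TGATAA on either strand. Among all 32851 windows of this length, 16.6% held the GATA motif, 52.0% held CACCC and 7.11% held both. Of the 15 leading residual genes, 11 had a window, of which 2 (Alas2 and AY036118) held GATA and 8 held CACCC, but the RefSeq window of AY036118, at chr17:39898386-39898635, does not lie beside the annotated gene given for it below. A match describes the letters of a window and does not show that a factor binds there.

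Hemoglobin itself chose the members, so its composition is given as a description. Hbb-bs (ENSMUSG00000052305) took 50.9, 49.9 and 53.7% of hemoglobin UMIs, Hba-a1 22.8, 22.1 and 22.1%, Hba-a2 18.8, 18.5 and 17.6% and Hbb-bt 7.46, 9.48 and 6.56%. The Hbb-bt to Hbb-bs ratio was 0.146, 0.190 and 0.122, highest at D11 and lowest at D14. The same order was seen in hemoglobin barcodes with at least 200 genes (0.179, 0.231 and 0.164), where the ratio was higher in every library. Over single members the ratio had medians of 0.133, 0.189 and 0.114, with the central 90% from 0.0232 to 0.205 in naive, 0.0637 to 0.277 at D11 and 0.00820 to 0.192 at D14, so the libraries overlapped widely. Alpha to beta chains stood at 0.713, 0.683 and 0.658. The embryonic genes Hbb-bh1, Hbb-bh2, Hbb-y and Hba-x together had 6, 20 and 1 UMIs. Counts of near-identical globin genes are uncertain: 76.3% of the 25-base words of Hba-a1 transcripts occur in Hba-a2 and 55.2% of those of Hbb-bs occur in Hbb-bt, and Balb/C mice are known to carry another beta-globin haplotype than the C57BL/6 reference, the effect of which was not tested.

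The residual transcriptome was led by Gm42418 (ENSMUSG00000098178, chr17:39846958-39848788, plus strand), a transcript that overlaps a ribosomal RNA repeat. It had 386478, 324335 and 330556 CPM, over 30% of the residual in every library. Its antisense neighbour AY036118 (ENSMUSG00000105361, chr17:39847113-39848035, minus strand) had 12589.6, 17973 and 7496 CPM, and all of its 25-base words lie on the opposite strand of Gm42418. The 15 leading genes, taken without mitochondrial and ribosomal protein genes, held 2 more, Camk1d (13248, 13514 and 16493 CPM), a calmodulin-dependent kinase gene, and Cmss1 (11879, 9882 and 9928 CPM), a gene of small ribosomal subunit assembly, that are not known as red cell genes. Among the others were Alas2, Ftl1, Mkrn1, Oaz1, Bnip3l, Pabpc1, Bpgm, Ube2l6, Tpt1 and Tent5c. A UMI marks a molecule at its 3′ end, so these levels are compared between genes without division by length.

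Alas2 had 27974 [27292, 28669.8], 30176 [29864, 30490.5] and 22499.7 [22194, 22808] CPM. It was the highest gene after Gm42418 in each library, and the D14 level was 0.804 of the naive level, a difference that is lost with hemoglobin in the total (shift 0.35 in log2, described with the comparisons). Ftl1, the ferritin light chain that stores iron, had 14779 [14284, 15287], 27780 [27481, 28082] and 10892 [10679.9, 11108] CPM, 1.88-fold higher at D11 than in naive and 0.737 of naive at D14. Mkrn1, an E3 ubiquitin ligase, had 13801, 18251 and 7156 CPM. Bnip3l (NIX), the receptor that marks mitochondria for autophagy in reticulocytes, had 11484, 11801 and 6916 CPM. Bpgm, which makes the 2,3-bisphosphoglycerate that lowers oxygen affinity, had 10338, 12197 and 5587 CPM. On this scale these genes were highest at D11 and lowest at D14, while Bnip3l differed little between naive and D11. Ube2l6 had 8609.6, 9239 and 6018 CPM, and Slc25a37 had 7736, 9171 and 5978 CPM. On this scale both were lowest at D14. Oaz1, ornithine decarboxylase antizyme, had 11111, 15532 and 8860.3 CPM, Tent5c, a poly(A) polymerase, had 8588, 8242 and 6342 CPM, and Tpt1, a translationally controlled protein, had 5639, 11696 and 6190.2 CPM. Pabpc1, the cytoplasmic poly(A)-binding protein, was at 13410.2, 11652 and 4786 CPM, highest in naive.

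**Figure D2:**
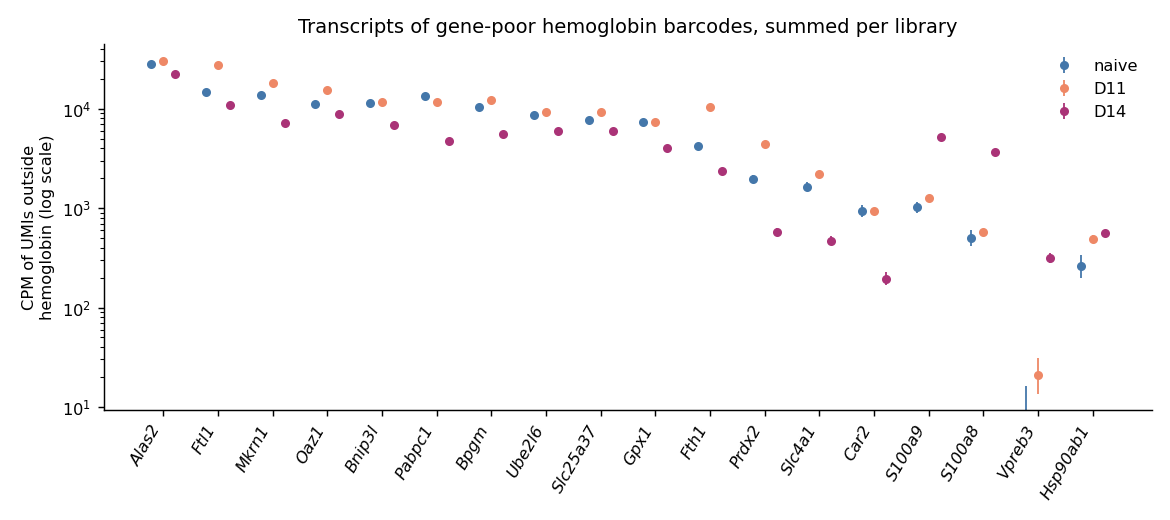
Level of 18 named genes in the summed members of each library, in CPM of UMIs outside hemoglobin on a log scale, with points for naive, D11 and D14 and bars for exact Poisson 95% intervals, which cover counting error only. Red cell genes such as Prdx2, Slc4a1 and Car2 were lowest at D14, S100a9, S100a8 and Vpreb3 were highest at D14, and Vpreb3 had 0 UMIs in naive, where only its upper limit shows.

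For the comparisons of conditions, a gene counted as measured when at least 10 UMIs were expected in the smaller sum, and as higher or lower when its CPM differed at least 2-fold. No test was possible with 1 library per condition, so these are counts of genes past a fold and not of changed genes. At D11, 115 of 844 measured genes were higher than in naive (13.6%) and 51 were lower (6.04%). At D14, 1146 of 2003 were higher than in naive (57.2%) and 88 were lower (4.39%), and 3411 of 4905 were higher than at D11 (69.5%) and 287 were lower (5.85%). The median log2 ratio over measured genes was 0.15 for D11 over naive, 1.19 for D14 over naive and 1.64 for D14 over D11. The D11 and D14 comparisons with naive share the naive library. The filter works on the pooled level, so a gene with few or no naive UMIs could pass through the deeper D11 or D14 sum alone and then had to be higher there. A named gene with fewer than 10 naive UMIs that stood higher is given as measured through that sum. Likewise, for D14 over D11, a gene with few D14 UMIs could pass through the D11 sum and then had to be lower. This bears on every count of genes lower at D14 than at D11. Because a CPM is a share, the scaling matters here: TMM factors, which centre most genes, moved every log2 ratio by 0.66 for D11 over naive, by -0.68 for D14 over naive and by -1.34 for D14 over D11, and counting hemoglobin in the total moved them by -0.33, 0.35 and 0.69. With TMM factors, D11 over naive had 332 genes higher and 13 lower, D14 over naive 715 and 295, and D14 over D11 1204 and 922. With hemoglobin in the total, D11 over naive had 49 higher and 77 lower. Leaving Gm42418 and AY036118 out of the total, an alternative added later, moved the ratios by -0.13, -0.14 and -0.0093 in the same order. D11 over naive then had 87 higher and 62 lower. The split differed in members with few genes. Among the 472 naive, 952 D11 and 85 D14 members with fewer than 100 genes, where fewer genes were measured, D14 over naive had 6 of 72 measured genes higher and 18 lower, and D14 over D11 had 6 of 81 higher and 41 lower.

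The 8 heme synthesis genes summed to 33956, 37534 and 26591 CPM, of which Alas2 was the most abundant, and Fech, ferrochelatase, which inserts iron into heme, had 5858, 7158 and 4024 CPM. The sum at D11 differed from naive by a log2 ratio of 0.14 [0.11, 0.18], and by -0.19 with hemoglobin in the total. The shift of -0.13 without Gm42418 and AY036118 is close to the size of that D11 ratio. At D14 the sum differed from naive by -0.35 [-0.39, -0.32], against -1.04 with TMM and 0.001 with hemoglobin in the total. Of 4 measured members at D11, 2 were higher than in naive and none lower: Alad (2.13 [0.72, 4.03]) and Urod (2.18 [0.58, 4.50]), enzymes of the middle of the pathway, which had 4, 91 and 24 UMIs and 3, 71 and 5 UMIs respectively. Both were measured through the D11 sum, so this count is not read against the 13.6% higher and 6.04% lower of all measured genes. Against D11, 3 of 5 measured members were lower at D14 and none higher, where 5.85% of all measured genes were lower and 69.5% higher. Among the 3 were Urod at -3.46 [-5.13, -2.17] and Alad at -1.56 [-2.27, -0.89]. Urod, with 5 D14 UMIs, was measured through the D11 sum and had to be lower, so this count is not read against that background. Alas2 and Fech stayed within 2-fold between all 3 libraries.

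Iron genes summed to 33468, 54788 and 23152 CPM, led by Ftl1. The D11 sum was above naive by a log2 ratio of 0.71 [0.68, 0.75], and stayed above it under TMM (1.37) and with hemoglobin in the total (0.38). The log2 ratio of the D14 sum over naive was -0.53 [-0.57, -0.49], with -1.21 and -0.18 under those scalings. Fth1, the ferritin heavy chain, had 4252 [3989, 4529], 10441 [10258, 10627] and 2375 [2277, 2477] CPM, 2.46-fold higher at D11 than in naive and 4.40-fold lower at D14 than at D11. Tfrc, the transferrin receptor, which reticulocytes lose as they mature, was low and had 13.2, 69.1 and 98.9 CPM from 3, 82 and 91 UMIs, a log2 ratio of 2.91 [1.32, 5.21] for D14 over naive. Of 6 measured iron genes at D11, Fth1 was higher and none was lower, against 13.6% higher and 6.04% lower over all measured genes, and Tfrc, measured through the D11 sum, was higher as well. Of 7 measured at D14, Tfrc and the iron chaperone Pcbp1 (4, 23 and 72 UMIs) were higher than in naive, both measured through the D14 sum. Glrx5, a glutaredoxin of iron-sulfur cluster assembly, was lower (-1.35 [-1.54, -1.17]). Over all measured genes 57.2% were higher and 4.39% lower. Mitoferrin and its relative Slc25a39 (4849, 4880.2 and 2906 CPM) were within 2-fold in all comparisons.

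The membrane list, 27 genes mostly of the skeleton, the band 3 complex and surface proteins, summed to 20646, 25284 and 13627 CPM. Slc4a1, the band 3 anion exchanger, had 1646 [1483, 1821], 2202 [2119, 2289] and 472 [428, 518] CPM, 3.49-fold lower at D14 than in naive. Sptb, beta-spectrin, had 233, 265 and 59.8 CPM, and Mpp1, a palmitoylated membrane scaffold, had 535, 815 and 240.3 CPM. These were among the 4 members lower at D14 than in naive of 12 measured, with none higher, against 57.2% higher and 4.39% lower over all measured genes. Epb41, protein 4.1, had 6056, 7086 and 3903 CPM and was within 2-fold. At D11, 1 of 17 measured members was higher than in naive, Tspo2 (1.19 [0.35, 2.18]), and none lower, against 13.6% and 6.04%. Against D11, 13 of 25 measured members were lower at D14 and none higher (5.85% and 69.5% of all measured genes). Among them were Rhd, which carries a blood group antigen, at -4.09 [-6.41, -2.48] (7, 66 and 3 UMIs), and Tmod1, tropomodulin, at -3.32 [-4.57, -2.29]. Rhd was measured through the D11 sum and had to be lower, and other members with few D14 UMIs could pass in the same way. The summed list at D14 was below naive under the main scaling (-0.60 [-0.65, -0.55]), TMM (-1.28) and hemoglobin in the total (-0.25), while D11 over naive was 0.29 [0.25, 0.34], and -0.041 with hemoglobin in the total.

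The 24 genes of protein turnover, most of them enzymes that attach ubiquitin, summed to 38949, 45752 and 22357 CPM, and the log2 ratio of D14 over naive was -0.80 [-0.84, -0.76] (-1.48 with TMM, -0.45 with hemoglobin in the total). Ubb, polyubiquitin, had 5279 [4985, 5586], 5141 [5012, 5271] and 1855 [1768, 1945] CPM, close in naive and D11 and 0.351 of naive at D14. Ube2o, the E2/E3 enzyme that degrades ribosomes and other proteins in reticulocytes, had 1777, 2300.2 and 1479.6 CPM and was within 2-fold in every comparison. Of 20 measured genes at D14, 5 were lower than in naive (Ubac1, Trim10, Ubb, Fbxo7 and Rnf10) and 1 higher (Nedd8, a ubiquitin-like modifier), against 57.2% higher and 4.39% lower over all measured genes. At D11, 3 of 20 were higher than in naive (Psme4 and Nedd8 among them) and none lower, near the 13.6% and 6.04% of all measured genes. Against D11, 9 of 24 were lower at D14 and 3 higher (5.85% and 69.5% of all measured genes).

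Autophagy and mitochondrial clearance genes summed to 18553, 21779 and 11247 CPM. After Bnip3l the most abundant were Gabarapl2 (3107, 4310.4 and 1667 CPM) and Map1lc3b (2471, 3571 and 1583 CPM), ubiquitin-like proteins of the autophagosome membrane, and Tax1bp1, an autophagy receptor, had 579, 848 and 361 CPM. Of 8 measured at D14, 1 was lower than in naive (Gabarap, 246, 314 and 123 CPM) and none higher, against 57.2% higher and 4.39% lower over all measured genes. Of 10 measured at D11 1 was higher (Optn, an autophagy receptor, 1.08 [0.038, 2.34]) and none lower, near the 13.6% and 6.04% of all measured genes. Optn was measured through the D11 sum (8, 88 and 51 UMIs). Against D11, 7 of 15 were lower at D14, among them Atg4a (-2.22 [-2.98, -1.53]) and Pink1 (-1.37 [-1.75, -0.99]), and 3 were higher (Atg5, Atg7 and Vdac1), against 5.85% and 69.5% of all measured genes. Mitochondrially encoded transcripts, the cargo of that pathway's organelle, took 5.67, 5.10 and 4.75% of the residual, led by mt-Co1 (15262, 16408 and 9689.8 CPM). None of the 13 was past 2-fold between D14 and naive, against 57.2% higher and 4.39% lower over all measured genes. At D11 mt-Nd3 and mt-Nd4l were lower than in naive (-1.39 and -1.53) and none was higher, against 6.04% and 13.6%. In gene-poor barcodes without a hemoglobin majority these transcripts took 74.5, 78.4 and 79.04%.

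Antioxidant and heme protein upkeep genes had a D14 over D11 ratio of -1.35 [-1.40, -1.31] in log2 for the sum, and -0.67 with hemoglobin in the total. Prdx2, peroxiredoxin 2, an abundant red cell peroxidase, had 1966 [1788, 2157], 4451 [4332, 4573] and 577 [529, 629] CPM from 448, 5281 and 531 UMIs. It was 2.26-fold higher at D11 than in naive, 3.41-fold lower at D14 than in naive and 7.71-fold lower at D14 than at D11. Gpx1, glutathione peroxidase 1, had 7350.2, 7362 and 4020.3 CPM and was the most abundant of the list. Gpx4, which reduces lipid peroxides, had 61.4 [33.6, 103], 477 [439, 518] and 84.8 [67.03, 106] CPM, 7.77-fold higher at D11 than in naive. Blvrb, biliverdin reductase B, had 334, 909 and 107 CPM, higher at D11 and lower at D14 than in naive. Of 9 measured genes at D11, 5 were higher than in naive (Gpx4, Sod2, Blvrb, Prdx2 and Txn1) and none lower, against a background of 13.6% higher, with Txn1 measured through the D11 sum. Of 10 at D14, 3 were lower than in naive (Prdx2, Blvrb and Txnrd2), against 4.39% of all measured genes. Txn1 (9, 95 and 208 UMIs) and Gclc (0, 7 and 70 UMIs) were higher and were measured through the D14 sum, where 57.2% of all measured genes were higher. The list summed to 11150.3, 15446 and 6040.2 CPM, and the D11 sum stayed above naive under all 3 scalings (0.47 [0.41, 0.53], 1.13 with TMM and 0.14 with hemoglobin in the total), as the D14 sum stayed below it (-0.88 [-0.95, -0.82], -1.57 and -0.53). In members with fewer than 100 genes D14 over D11 was -0.019, and the D14 sum was instead above naive (0.43), and so was Blvrb (1.72).

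Energy and gas exchange enzymes summed to 11747, 14019 and 6528 CPM, mostly Bpgm. Car2, carbonic anhydrase 2, had 939 [817, 1074], 934 [879.7, 991] and 196 [168, 226] CPM, level between naive and D11 and 4.80-fold lower at D14 than in naive. In members with fewer than 100 genes the log2 ratio of D14 over naive was -0.092, within 2-fold, while it was past 2-fold in the other 14 alternative settings. Nt5c3, the pyrimidine nucleotidase that clears the products of RNA decay in red cells, was also lower (-1.04 [-1.44, -0.63]). Of 9 measured, 6 were higher than in naive at D14 and 2 lower, where 57.2% of all measured genes were higher and 4.39% lower. The 6 were Pgam1, Gapdh, Ldha, Pgk1, Gpi1 and Adk, each with 9 naive UMIs or fewer and measured through the D14 sum. Those 5 glycolytic enzymes and adenosine kinase are used by most cells, and their levels in members were low, 17.6, 92.7 and 118 CPM for Gapdh.

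Translation genes summed to 22222, 27594 and 14487 CPM, in which Tpt1 was 2.07-fold higher at D11 than in naive and Pabpc1 was 2.80-fold lower at D14 than in naive. Of 11 measured at D14, 3 were higher than in naive (Eif4a1, Eef1a1 and Eif2s2) and 2 lower (Pabpc1 and Pabpc4), against 57.2% and 4.39% of all measured genes. Eif4a1 and Eif2s2 were measured through the D14 sum. The 86 ribosomal protein genes took 3.11, 3.53 and 4.59% of the residual, against 13.2, 9.58 and 11.5% in other barcodes. Of 79 measured, 36 were higher at D14 than in naive and 1 lower, beside 57.2% and 4.39% of all measured genes, a difference that was not tested. Their sum differed by 0.56 [0.52, 0.59], and by -0.12 with TMM. Erythroid transcription factors were sparse (764, 817 and 794 CPM over 13 genes). At D14, 1 of 6 measured was lower than in naive (Lmo2, -1.32 [-1.81, -0.82]) and 1 higher (Bcl11a, 3.74 [1.85, 6.81]), against 4.39% and 57.2% of all measured genes. Bcl11a is known in B cells as well and was measured through the D14 sum (2, 18 and 108 UMIs). The survival list was led by Bcl2l1, the BCL-XL protein that keeps late erythroid cells alive, which had 851, 922 and 611 CPM. Nothing of that list was past 2-fold at D11 among 3 measured genes, against 13.6% higher and 6.04% lower over all measured genes. At D14 1 of 4 was higher and none lower, against 57.2% and 4.39%. It was Socs2, with 0, 6 and 64 UMIs, which passed the filter through D14 alone.

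Interferon-stimulated genes summed to 8689, 11325 and 5041 CPM, most of it Rsad2 (viperin, 5525, 6478 and 3134 CPM) and Isg20, an RNA exonuclease (1878, 3066 and 902 CPM). Isg15, a ubiquitin-like protein that Ube2l6 conjugates, had 448 [365, 543], 1134 [1075, 1197] and 316 [281, 355] CPM. Of 9 measured at D11, 1 was higher than in naive (Isg15) and 2 lower (Irf7 and Ifi27l2a), against 13.6% and 6.04% of all measured genes, and of 8 measured at D14 3 were lower (Irf7, Ifi27l2a and Isg20) and none higher, against 4.39% and 57.2%. Heat shock chaperones summed to 509, 764 and 1917 CPM, led by Hsp90ab1, a cytosolic chaperone, at 259 [197, 334], 489.7 [451, 531] and 558 [510.5, 608] CPM, and the log2 ratio of D14 over naive for the whole list was 1.91 [1.64, 2.20]. Cell division genes summed to 276, 561 and 1328 CPM, with Mki67 leading in naive and D11 (83.4, 205 and 128 CPM) and Hmgb2 at D14 (43.9, 54.8 and 438 CPM), and a log2 ratio of D14 over naive of 2.26 [1.90, 2.65] for the whole list. Most members of both lists had under 10 naive UMIs, so no count of measured members is given. The ratio of D14 over D11 for these sums was 1.33 [1.21, 1.44] and 1.24 [1.11, 1.38], but -0.012 and -0.095 with TMM.

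Markers of other blood cells were counted in the same barcodes. Neutrophil markers summed to 2045, 2437 and 12337 CPM with S100a9 the most abundant (1022 [895, 1162], 1268 [1204, 1333] and 5190.1 [5044, 5339] CPM), pro-B leukemia markers to 105, 105 and 1071 CPM, B cell markers to 777, 665 and 2111 CPM and monocyte markers to 347, 371 and 831 CPM. The neutrophil sum was 6.03-fold and the pro-B sum 10.2-fold higher at D14 than in naive, and both stayed more than 2-fold higher with TMM (1.91 and 2.66 in log2). These sums cover every listed marker, without the filter on measured genes, since in the naive sum 1 of 16 neutrophil, 9 of 14 pro-B, 0 of 16 B cell and 4 of 16 monocyte markers had 0 UMIs and a marker could pass that filter through D14 alone. Vpreb3, a surrogate light chain gene of pro-B cells, had 0, 25 and 293 UMIs, at least 24.2-fold higher at D14 than in naive against a floor of 3 counts over the naive sum. T cell and NK cell marker sums were highest in naive, at 663, 158 and 237 and 241, 81.8 and 94.6 CPM. The T cell sum over naive had a log2 ratio of -2.07 [-2.39, -1.75] at D11 and of -1.48 [-1.79, -1.17] at D14, but the T cell marker measured for D14, Lef1, stood at 0.28 [-0.33, 0.93], and no NK cell marker was measured against naive. Platelet markers had 13, 38 and 35 UMIs in all, with 9, 8 and 8 of 16 at 0, and the progenitor, basophil and mast cell markers had 2, 11 and 17. Rag1 and Rag2 were at 0 in all 3 libraries and Fgfr1 was at 0 in naive and D11.

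Counted per barcode, the neutrophil and pro-B markers of D14 were nearly the same in small and large members up to 7999 UMIs. Neutrophil markers gave 3.90 UMIs per D14 member with 500 to 999 UMIs, 3.92 with 1000 to 1999, 3.79 with 2000 to 3999 and 3.79 with 4000 to 7999. These classes held 378, 555, 985 and 1035 members. Pro-B markers in the same 4 classes gave 0.325, 0.326, 0.323 and 0.348 UMIs. Heme synthesis genes gave 2.06, 4.25, 8.06 and 12.8 UMIs, so they grew with the barcode. Per barcode the neutrophil markers were 0.570, 0.907 and 3.83 UMIs in members and 0.798, 1.13 and 4.10 in gene-poor barcodes without a hemoglobin majority, and pro-B markers were 0.0294, 0.0392 and 0.333 and 0.0688, 0.149 and 0.447. In other barcodes they were 137, 291 and 309 for neutrophil and 3.26, 5.56 and 27.3 for pro-B markers. These markers move with the D14 library beside every D14 difference given here, and their part in those differences was not tested.

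To set these differences beside where each gene is found in the libraries, genes were divided by the D11 library into 791 that were at least 4 times higher in hemoglobin barcodes with at least 200 genes than in other barcodes, 11802 with the opposite difference, and those between, a division added after earlier values were seen. Genes of the hemoglobin side took 72.4, 73.4 and 54.9% of the residual of members and 202, 273 and 170.5 UMIs per member. Genes of the other side took 2.64, 1.996 and 9.14% and 7.37, 7.43 and 28.4 UMIs. From naive to D14, 0 of 192 measured genes of the hemoglobin side were higher and 60 were lower (median log2 ratio -0.77), against 57.2% and 4.39% of all measured genes. Most measured genes of the other side passed the filter through the D14 sum (349 measured, against 46 from naive to D11). Their ratios are therefore not read, and the shares above, taken over all genes of the side, stand for them. From naive to D11 the hemoglobin side had 33 of 220 higher and 0 lower (median 0.29), and the other side 0 of 46 higher and 3 lower (median -0.18), against 13.6% and 6.04% of all measured genes, medians that cross 0 with hemoglobin in the total and with TMM, respectively. From D11 to D14 the hemoglobin side had 1 of 279 higher and 174 lower, against 69.5% and 5.85% of all measured genes. The D11 library that made the division enters both comparisons that involve D11.

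**Figure D3:**
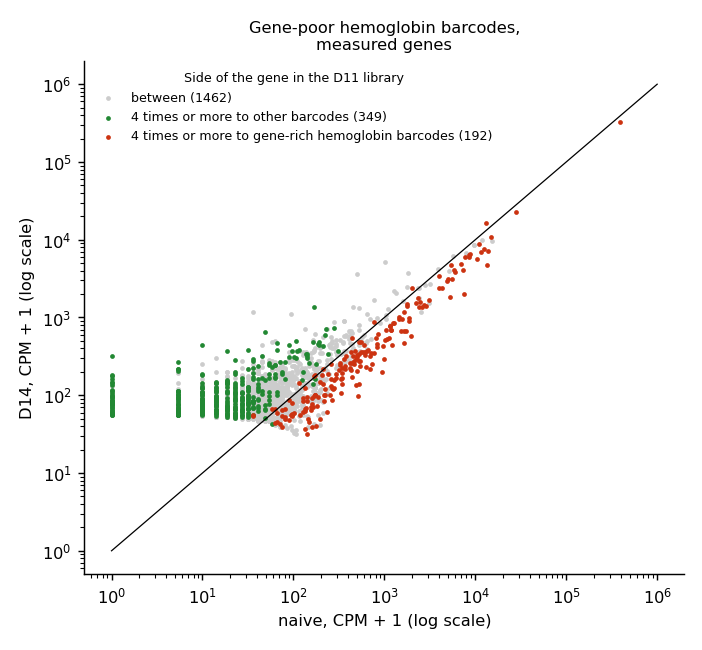
CPM of each of the 2003 measured genes in D14 members (vertical axis) against naive members (horizontal axis), with 1 added to each value and both axes on a log scale. Of the 192 genes on the hemoglobin side none lies 2-fold above the line of equal levels and 60 lie 2-fold below it, while the 349 genes on the side of other barcodes include many that were measured through their D14 counts alone and so had to lie above it, as did the column of genes with 0 UMIs in naive at the left.

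**Figure D4:**
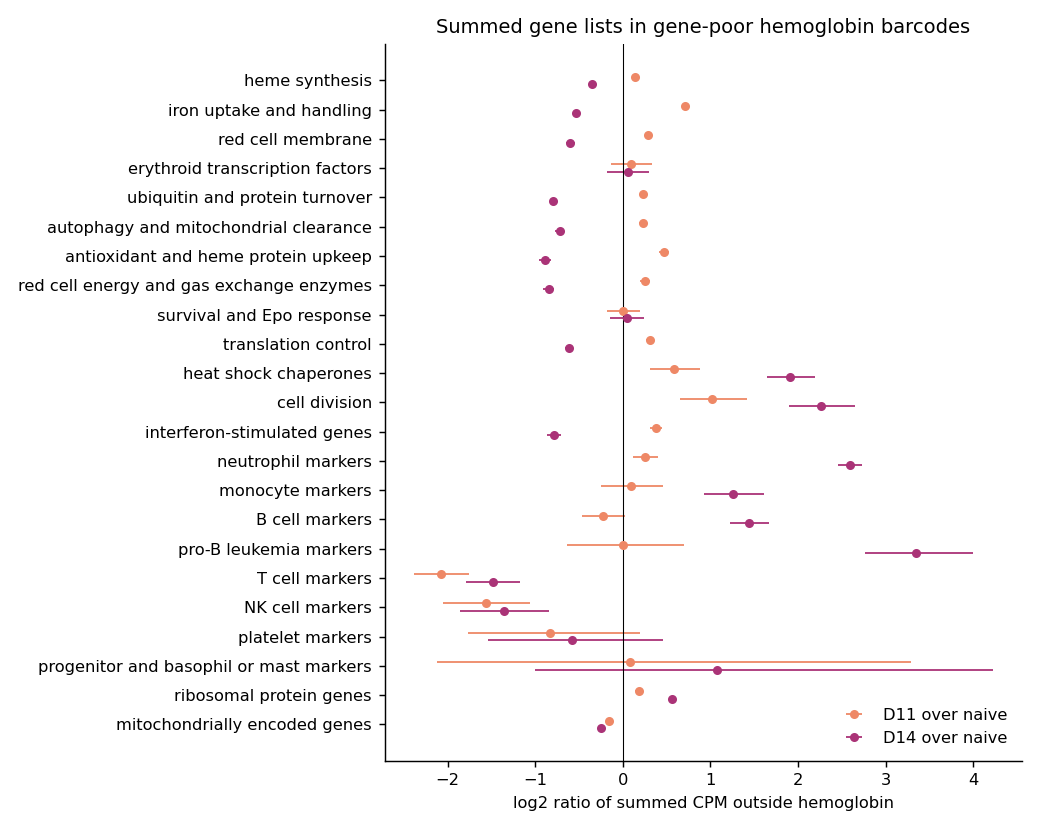
Log2 ratio of the summed CPM of each gene list in members, D11 over naive and D14 over naive, with exact 95% intervals for counting error only. Heme, iron, membrane, turnover, autophagy and antioxidant genes were above 0 at D11 and below 0 at D14, whereas heat shock, cell division, neutrophil, monocyte, B cell and pro-B lists were above 0 at D14. With hemoglobin in the total, D11 heme, membrane, turnover and autophagy sums lie below 0 and the D14 heme sum is at 0.001.

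The genes farthest apart between naive and D11 were few in UMIs. Gm32051, a gene of no known role, had 1, 247 and 17 UMIs, a log2 ratio of 5.57 [3.08, 10.88]. Cox6b2, a cytochrome c oxidase subunit best known from testis, had 15, 842 and 53 UMIs, 65.8 [36.8, 109], 709.7 [663, 759] and 57.6 [43.2, 75.4] CPM. Cox6b2 was 10.8-fold higher at D11 than in naive and 12.3-fold higher than at D14. Atp5j, a subunit of mitochondrial ATP synthase, and Mgst3, a membrane glutathione transferase, were higher at D11 by 3.48 [1.59, 6.54] and 3.29 [1.72, 5.59] in log2, from 2 and 3 naive UMIs. Gpx4 completes the 5 highest. Gm32051, Atp5j and Mgst3 were measured through the D11 sum and so had to be higher there, and their ranks are not read. The 5 lowest at D11 were Tmsb10 (-2.23 [-2.91, -1.55]), an actin-binding peptide, Fyb (-2.17) and Slfn2 (-1.95), genes used in lymphocytes, Txnip (-2.10), a regulator of glucose uptake, and Snrnp70 (-2.04), of the spliceosome. Gm32051, Cox6b2, Mgst3 and Gpx4 were also at least 2-fold above D14, and Atp5j was not. In hemoglobin barcodes of D11 with at least 200 genes, Gm32051 had 125 CPM and Cox6b2 559 CPM.

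Of the 2003 genes measured for D14 over naive, 54 had 0 UMIs in naive, so their ratios are lower bounds and have no rank. Among these 54 Vpreb3 had the most UMIs at D14, at least 24.2-fold above naive. The rule for named genes took 5 of them by their order in the count table, which were not the highest: Gm4258 (0, 8 and 92 UMIs, at least 7.60-fold higher), Phlpp1, a phosphatase (0, 14 and 57 UMIs, at least 4.71-fold), Nabp1, a single-strand DNA binding protein (0, 14 and 53 UMIs, at least 4.38-fold), Cep350, a centrosome protein (0, 25 and 53 UMIs, at least 4.38-fold), and Bmpr2, a receptor of bone morphogenetic proteins (0, 11 and 52 UMIs, at least 4.29-fold). Among the 5 lowest were Skap1, a T cell adaptor (-2.30 [-2.96, -1.64]), Car2, Dnajb2, a co-chaperone (-2.21 [-2.99, -1.43]), and Acp1, a phosphatase found in red cells (-2.17 [-2.86, -1.48]). Between D14 and D11, 12 measured genes had 0 UMIs at D11 and likewise have no rank. The 5 taken in table order were Gm8251, Plcl1, Gm12610, Fam185a and Naa25, of which Gm8251 had 35 UMIs at D14 and was at least 15.05-fold higher. The 5 taken at the low end were Nacad, with 0, 25 and 0 UMIs, Apol10a (2, 38 and 1), Igha (3, 53 and 2), which encodes the constant region of IgA, Rhd and Parvb (0, 35 and 2). All 5 were measured through the D11 sum and so had to be lower at D14. Their order is not read as a ranking, and the ratio of Nacad is only a bound.

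Members of the same library were not alike. With rising hemoglobin share, heme synthesis genes took more of the residual, from 14250.1 CPM in naive members with 50 to 70% hemoglobin to 53465 CPM in those above 95%, from 20885 CPM at 70 to 80% to 52470.5 CPM in D11 members, and from 11406 to 52660.2 CPM in D14 members. The class above 95% held 148, 1166 and 11 members. At 90 to 95% hemoglobin the heme sums of the 3 libraries were 36926, 34447 and 32589.9 CPM. Mitochondrially encoded transcripts went the other way, from 137020 to 24652 CPM in naive and from 115311 to 29316 CPM at D14. Autophagy genes followed the heme genes, and at 90 to 95% hemoglobin they were 22018, 22484 and 14345 CPM, lower at D14 than in the other libraries in that class too. Hemoglobin share is part of the rule and all lists share 1 total, so these trends are descriptions.

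**Figure D5:**
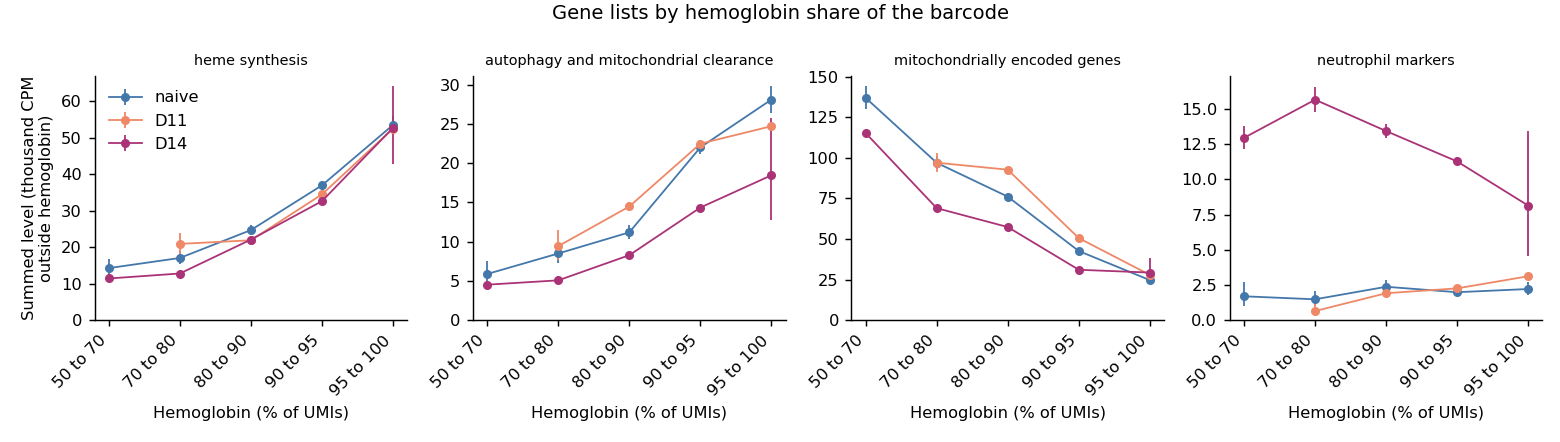
Summed level of 4 gene lists in units of 1000 CPM outside hemoglobin (vertical axes, from 0) by the hemoglobin share of the barcode (horizontal axes), for the members of each library, with exact Poisson 95% intervals for counting error only. Heme synthesis and autophagy sums were higher and mitochondrial transcripts lower toward 95 to 100% hemoglobin, and neutrophil markers were highest at D14 in every class. D11 has no member under 70%, and the last D14 class holds 11 members.

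Divided by gene number, naive and D11 members differed widely in the antioxidant genes. In naive these took 1311 CPM in members with fewer than 50 genes and 20479 CPM in those with 150 or more, and at D11 2287 and 22214 CPM. At D14 the same classes had 5357 CPM, from 9 members, and 7495 CPM. Membrane genes had 13546 and 27479 CPM in naive and 14008 and 27906 CPM at D11. Heme synthesis genes are compared from the class of 50 to 99 genes, not from the one below 50. In naive they had 35334 CPM in that class and 31057 CPM in members with 150 or more genes. At D11 they had 45862 and 31880.3 CPM, so they were lower in the class with more genes. Gene number is part of the rule, so these values are descriptions. When members were thinned to 100 residual UMIs they held medians of 47, 49 and 59 genes, and hemoglobin barcodes with at least 200 genes held 56, 58 and 58, so the D14 members were the only ones as diverse as the latter, while other barcodes held 89, 87 and 86.

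Against the 64, 1354 and 1097 hemoglobin barcodes with at least 200 genes of the same libraries, members had fewer UMIs (medians 2722, 5610.5 and 3185 against 9514, 11176 and 6064). The rule separates both sets by gene number, so the comparison is a description with no weight as a test. Of 432 genes measured in all 3 libraries, 0 were at least 2-fold higher in members in every library (0%) and 7 were at least 2-fold lower in every library (1.62%). Among the 5 lowest on average were Neat1, a nuclear long RNA, with log2 ratios of -2.79, -2.98 and -1.11, Trim10, an erythroid ubiquitin ligase (-2.13, -1.82 and -2.74), Blvrb (-1.60, -1.39 and -2.74) and Car2 (-1.48, -1.78 and -2.47). Alas2 was on the side of the members in every library (1.01, 0.97 and 0.44), as were Ftl1 (0.74, 0.93 and 0.56) and Ube2l6 (0.80, 0.89 and 0.56). With TMM factors, averaged over the libraries, these ratios move by 0.66, and with hemoglobin in the total by -0.62, and in each library the direction of the genes named in this paragraph stays under both.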

How the data were processed

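Peripheral blood of naive and leukemic mice (D11, D14) was profiled as 1 10x Genomics library per condition. The authors deposited raw UMI counts per gene and barcode, filtered by Cell Ranger (5.0.1 in the file header, 7.1.0 in the submitters' processing notes) on mm10. Library depth was 30362408, 57640396 and 65861863 UMIs. Counts of members were summed per library without the 8 hemoglobin genes and scaled to CPM in Python 3.11.15 (scipy 1.17.1), with exact Poisson intervals, exact binomial intervals of ratios and Clopper-Pearson shares, at 95%. A ratio against 0 UMIs used a floor of 3 counts over the sum. With 1 library per condition no test across libraries was made. TMM factors came from edgeR 4.0.16 (R 4.3.3) as an alternative. No doublet caller was run, and 1 alternative left out the 5% of members with the most UMIs. Named genes were the markers of the label, the 15 highest outside hemoglobin, mitochondrial and ribosomal protein genes, the 5 measured genes at each end of every comparison (those with 0 UMIs in the denominator ahead of the rest, in table order), and members of 22 lists: the 4 most abundant of each and any measured member of the heme, iron, membrane, ubiquitin and autophagy lists. Other members are named where they were past 2-fold or as defining markers, chosen after their values were seen. Ahsp and Aldoa had no entry under these symbols. The members and the lists were chosen with earlier results of these data known. The scripts were tested on simulated data, 12 alternatives were planned and 3 were added after values were seen. Coordinates are GENCODE vM21, and upstream windows are RefSeq on GRCm38.p6. Some named genes are not reported here.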

Additional observations from a re-analysis of the deposited data

How the results depend on the processing

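No paired analysis was possible because each condition had 1 library and no test was made. Of 2795 ratios of named genes and lists recomputed under the other settings, 1939 moved by less than their counting interval, 849 moved by more and 7 changed sign after a 2-fold call. Those 7 were, among members with fewer than 100 genes, Blvrb for D14 over naive (log2 1.72) and Neat1 for D14 over D11 (-0.055), and, with TMM factors for D14 over D11, Slfn2 (-0.30), Txnip (-0.14) and the sums of cell division (-0.095), heat shock (-0.012) and monocyte markers (-0.17). Of 62 ratios past 2-fold, from 34 genes over the comparisons of conditions, 58 kept their sign and 39 stayed past 2-fold in every setting, of 15, that gave a value. Of 23 such ratios from 14 lists, 20 kept their sign and 8 stayed past 2-fold.

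The count of genes past 2-fold depended on the filter, the members and the scaling. For D11 over naive it was 166, and 91 with hemoglobin over 90%, 67 with fewer than 100 genes, 345 with TMM, 408 at 5 expected UMIs, 50 at 30, and 66 in members with 200 to 400 residual UMIs. For D14 over naive it was 1234, and 573 with hemoglobin over 90%, 24 with fewer than 100 genes, 1010 with TMM, 2347 at 5 expected UMIs, 241 at 30, and 370 with 200 to 400 residual UMIs. For D14 over D11 it was 3698, and 1907 with hemoglobin over 90%, 47 with fewer than 100 genes, 2126 with TMM, 1411 at 30 expected UMIs and 2237 with 200 to 400 residual UMIs. For members against hemoglobin barcodes with more genes it was 7, and 31 with hemoglobin over 80%, 25 over 90%, 37 with a limit of 300 genes, 2 with TMM, 62 with hemoglobin in the total, 21 at 5 expected UMIs, 4 at 30, 40 for the mean over barcodes and 40 with 200 to 400 residual UMIs. With the limit of 300 genes, 24 of the 37 were higher in members and 13 lower, and none of the 7 was among them. A stricter filter tests fewer genes and smaller sets hold fewer UMIs. The cause of the other shifts was not tested. Depth limits the naive library most, whose members held 227886 residual UMIs, so that genes with few naive UMIs have wide intervals.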

Other observations

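Gene-poor barcodes without a hemoglobin majority numbered 247, 221 and 532 in naive, D11 and D14. They held medians of 590, 634 and 902 UMIs, and mitochondrially encoded genes took 74.5, 78.4 and 79.04% of their residual UMIs, against 5.67, 5.10 and 4.75% in the gene-poor hemoglobin barcodes. More than 10% of all UMIs were mitochondrial in 244, 221 and 529 of them, and in 8, 1 and 21 of the hemoglobin barcodes. At the limit of 50% hemoglobin, mitochondrial transcripts of D14 took 80945 CPM in the 11 members with 50 to 55% hemoglobin and 494538 CPM in the 7 barcodes with 45 to 50%. In naive the values were 151499 CPM in the 4 members with 50 to 55% and 161961 CPM in the 4 barcodes with 45 to 50%, so the step seen at D14 was not seen there.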
